A study of Capra hircus with 9 samples.

Results

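The genes described here are the 9 kinases, adaptors and regulators that act next to the antigen receptors of lymphocytes: PTPRC, CSK, LCK, FYN, ZAP70, SYK, BTK, LAT and LCP2. They were chosen by name and function, with earlier results of these data known, and all 9 were found among the 21663 genes of the deposited table, ZAP70 through its transcript descriptions. RNA sequencing was performed on submandibular glands of healthy female Lubo goats aged 1, 12 and 24 months, with 3 goats per age and 1 library per goat, so that n = 3 for each age. Husbandry was the same for all goats, all were fasted and anaesthetised with xylazine before slaughter, no treatment set the groups apart, and the samples are whole gland, in which the RNA of secretory, vascular and immune cells is mixed. Levels are given as CPM, the reads of a gene relative to the size of its library after scaling by the trimmed mean of M values, and the libraries held 20061904 to 26328051 assigned reads.

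A T or B lymphocyte senses antigen through a receptor that has no enzyme of its own. The Src family kinases LCK and FYN phosphorylate the CD3 chains of the T cell receptor, and the phosphatase PTPRC (CD45) and the kinase CSK set how active these kinases are. ZAP70 in T cells, or its relative SYK in B cells, myeloid cells and some epithelia, then docks on the phosphorylated chains. ZAP70 phosphorylates the adaptors LAT and LCP2 (SLP-76), on which the downstream enzymes assemble, whereas BTK is a Tec family kinase that works below SYK in B cells and myeloid cells. LCK, ZAP70 and LAT are known as genes of T cells and natural killer cells, PTPRC and LCP2 as genes of most leukocytes, and FYN, SYK and CSK are expressed more widely.

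The libraries labelled 1-month-old were not alike. In 1-month-old replicate 2 the salivary mucin gene MUC19 was at 50.6 CPM, compared with 23104 and 17013 CPM in replicates 1 and 3 and 73032 to 152406 CPM in the 6 older libraries, and the 9 salivary acinus and duct markers found summed to 192 CPM, compared with 24858 and 18142 CPM. That library therefore went against its tissue label, and the fold changes and counts of calls for the 9 genes are also given without it. Thymocyte markers were present in all 3 libraries of this age, at summed levels of 2657, 6691 and 1208 CPM for replicates 1, 2 and 3 over 8 genes, whereas the older libraries held 23.5 to 35.1 CPM. RAG1, which recombines the receptor genes of immature lymphocytes, was at 1514, 4217 and 652 CPM at 1 month and at 0.0411 to 0.814 CPM in the older libraries. The 5 thymic epithelium markers found summed to 173, 701 and 69.1 CPM in 1-month-old replicates 1, 2 and 3 and to 0.911 to 2.55 CPM later. Of these markers, 4 had at most 3 reads in every older library. The values given without replicate 2 thus still rest on 1-month-old libraries that held thymocyte and thymic epithelium markers. The mature T cell markers summed to 519, 2551 and 580 CPM at 1 month and to 25.0 to 34.7 CPM later. In bulk tissue, fewer cells of a type and less RNA per cell cannot be told apart, and the part of these cells in the results below was not tested.

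Most of the 9 genes were far lower in the older glands. Compared with the 1-month-old glands, 8 of the 9 genes were significantly lower at 12 months (LCK, LAT, ZAP70, LCP2, PTPRC, FYN, SYK and CSK) and 7 at 24 months (the same genes without CSK), whereas BTK passed at neither age. A gene was called when edgeR's quasi-likelihood test gave a Benjamini-Hochberg adjusted p below 0.05 over all genes tested and the log2 fold change exceeded 2 in size. Of all genes tested, 9.52% were called lower at 12 months and 9.15% at 24 months. The median log2 fold change of the 9 genes was -4.69 at 12 months and -4.38 at 24 months, compared with -0.05 and -0.04 over all genes tested. Both comparisons share the 1-month-old libraries. PTPRC, LCP2, LCK, ZAP70 and SYK were also singled out by the study on these samples, so that their direction is no independent evidence.

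**Figure D1:**
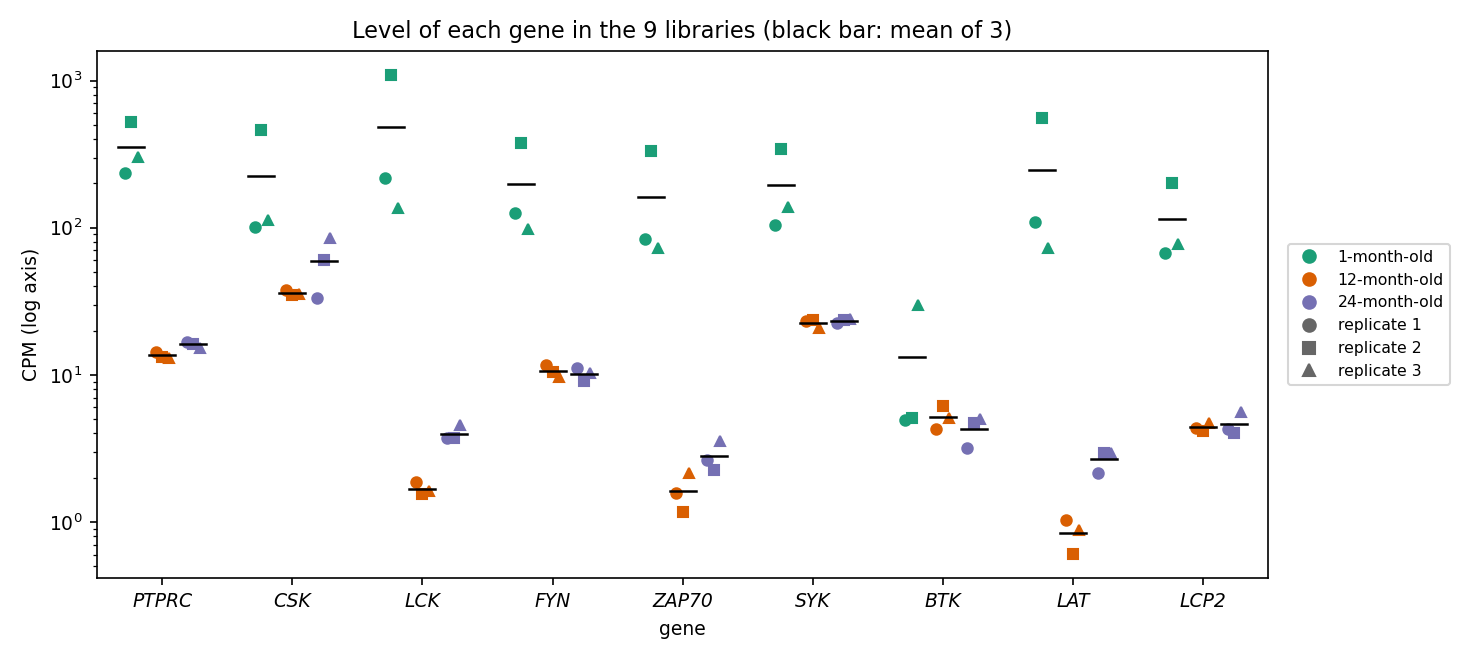
Level of each of the 9 genes in CPM on a log axis in the 9 libraries, coloured by age, with symbols for the replicate and a black bar for the mean of 3. For every gene except BTK, the 1-month-old libraries lie above all 6 older libraries, and for BTK 1-month-old replicates 1 and 2 (4.92 and 5.09 CPM) lie among the older ones.

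These calls depended on single libraries. Without 12-month-old replicate 1 or without 12-month-old replicate 2, none of the 9 genes was called in edgeR at 12 months, although 8 had an unadjusted p below 0.05 in each of these fits (37.1% of all genes had one with all 6 libraries), and without 12-month-old replicate 3 only PTPRC was called. Of all genes tested, 0, 61 and 111 were called in these fits, compared with 1742 with all 6 libraries. The log2 fold changes moved little in these fits. Without 12-month-old replicate 1, 2 or 3, LCK was at -8.25, -8.11 and -8.16 (-8.18 with all). ZAP70 was at -6.59, -6.43 and -6.89 (-6.63 with all), and PTPRC at -4.73, -4.66 and -4.67 (-4.69 with all). Without 24-month-old replicate 1, 2 or 3, the number called at 24 months was 6, 5 and 3, beside 1271, 446 and 289 of all genes, compared with 1956. Without 1-month-old replicate 2, 7 genes were called at each age, beside 10.3% and 9.99% of all genes, and CSK was the one that lost its call at 12 months. A two-sided exact permutation test, which needs no model of the spread, was also applied to each gene with the 3 young libraries against all 6 older ones. Each of the 8 genes other than BTK had every older library below every 1-month-old library, as had 20.5% of all genes tested, and reached an exact p of 0.0238, the smallest this design allows. Without any one of the 1-month-old libraries, replicate 2 included, the exact test cannot go below 0.0714.

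PTPRC and CSK set the activity of the Src family kinases. PTPRC, which removes the inhibitory phosphate from LCK and marks leukocytes in general, was at 237, 522 and 304 CPM in the 1-month-old libraries, at 14.4, 13.2 and 13.1 CPM at 12 months and at 16.8, 16.3 and 15.3 CPM at 24 months. Its levels did not overlap between the 1-month-old and the older libraries, and its 12-month mean was 3.83% of its 1-month mean. The log2 fold change was -4.69 (SE 0.433, edgeR adjusted p = 0.00631) at 12 months and -4.38 (SE 0.494, edgeR adjusted p = 0.00333) at 24 months. These changes were -4.32 and -3.98 without 1-month-old replicate 2.

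CSK, which adds the inhibitory phosphate and is expressed in most cells, was at 101, 464 and 113 CPM at 1 month. It was at 37.7, 34.9 and 35.2 CPM at 12 months and at 33.2, 60.4 and 85.1 CPM at 24 months, where its 3 libraries spread more widely than those of the other 8 genes relative to their mean. The 12-month level was lower by 2.65 on the log2 scale (log2 fold change -2.65, SE 0.671, edgeR adjusted p = 0.0395). At 24 months the log2 fold change was -1.86 (95% interval -3.49 to -0.22, edgeR adjusted p = 0.109), which was not called. The call of CSK at 12 months depended on 1-month-old replicate 2, whose level was 4.33 times the mean of replicates 1 and 3. Without that library the log2 fold change was -1.58 at 12 months, with an edgeR adjusted p of 6.23e-04 but below the fold threshold, and -0.75 at 24 months (edgeR adjusted p = 0.186).

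LCK, the Src family kinase that rides on CD4 and CD8 and starts T cell receptor signalling, was one of the 2 genes with the largest fitted falls among the 9. Its level was 219, 1097 and 136 CPM at 1 month, 1.86, 1.54 and 1.63 CPM at 12 months and 3.72, 3.69 and 4.54 CPM at 24 months. The older values rest on 28 to 89 reads per library, well above the 3-read floor of 0.0835 to 0.175 CPM. The log2 fold change was -8.18 (SE 1.07, edgeR adjusted p = 0.00907) at 12 months and -6.87 (SE 0.984, edgeR adjusted p = 0.00655) at 24 months. The size depended on 1-month-old replicate 2, in which LCK was 6.18 times the mean of the other two, and without it the changes were -6.72 and -5.39.

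FYN, the relative of LCK that is expressed in T cells, brain and many other tissues, was at 125, 376 and 97.4 CPM at 1 month. Its levels were 11.6, 10.4 and 9.66 CPM at 12 months and 11.2, 9.07 and 10.3 CPM at 24 months, so that the older libraries lay close together and below all of the young ones. Its fitted log2 fold change was -4.23 at both older ages, with an SE of 0.628 and an edgeR adjusted p of 0.0113 at 12 months and an SE of 0.639 and an edgeR adjusted p of 0.00764 at 24 months. It was -3.40 and -3.35 without 1-month-old replicate 2.

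ZAP70, the kinase that binds the phosphorylated CD3 chains in T cells and natural killer cells, was at 83.2, 332 and 72.4 CPM at 1 month. It was at 1.57, 1.16 and 2.15 CPM at 12 months, on 21 reads or more per library, and at 2.62, 2.27 and 3.57 CPM at 24 months. It changed by a log2 fold of -6.63 (SE 0.839, edgeR adjusted p = 0.00848) at 12 months and -5.79 (SE 0.781, edgeR adjusted p = 0.00539) at 24 months, and without 1-month-old replicate 2 it was -5.57 and -4.70.

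SYK, which does the same work in B cells, mast cells and myeloid cells and is also found in epithelia, was at 104, 344 and 139 CPM at 1 month. The 6 older libraries lay within a narrow range, at 23.2, 23.7 and 20.7 CPM at 12 months and 22.4, 23.4 and 24.0 CPM at 24 months. The log2 fold change was -3.11 (SE 0.530, edgeR adjusted p = 0.0147) at 12 months and -3.01 (SE 0.553, edgeR adjusted p = 0.0128) at 24 months. The 12-month mean of SYK was 11.5% of its 1-month mean, whereas that of ZAP70 was 1.00%, and without 1-month-old replicate 2 these shares were 18.5% and 2.09%.

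BTK, whose loss blocks B cell development in humans, was the gene that did not pass. It was at 4.92, 5.09 and 29.9 CPM at 1 month, at 4.30, 6.17 and 5.05 CPM at 12 months and at 3.20, 4.71 and 4.99 CPM at 24 months. A single library, 1-month-old replicate 3, stood above all others, and the remaining 1-month-old libraries lay inside the range of the older ones. The log2 fold change was -1.30 (95% interval -3.06 to 0.45, edgeR adjusted p = 0.233) at 12 months and -1.51 (95% interval -3.22 to 0.20, edgeR adjusted p = 0.193) at 24 months, and without replicate 3 it was 0.04 and -0.15. The exact permutation test over all 9 libraries gave p = 0.238. This result depended on the scaling by the trimmed mean of M values, since without it BTK too was lower at an exact p below 0.05. The same library had the highest levels of several B cell and myeloid genes, with CR2 at 156 CPM (46.1 and 2.77 CPM in replicates 1 and 2), PAX5 at 33.5 CPM (6.18 and 11.3 CPM) and SPI1 at 56.0 CPM (8.92 and 26.0 CPM). Its 7 macrophage and monocyte markers summed to 602 CPM, compared with 175 and 268 CPM in the other two and 92.0 to 186 CPM in the older libraries, whereas its 8 B cell markers summed to 260 CPM, compared with 92.4 and 294 CPM, and 10.2 to 27.1 CPM in the older libraries. Their part in the level of BTK was not tested.

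LAT, the membrane adaptor phosphorylated by ZAP70, was at 109, 557 and 72.5 CPM at 1 month. It was at 1.03, 0.606 and 0.879 CPM at 12 months, on as few as 11 reads, and at 2.15, 2.95 and 2.96 CPM at 24 months. On the log2 scale its change was -8.19 (SE 1.08, edgeR adjusted p = 0.00907) at 12 months and -6.46 (SE 0.956, edgeR adjusted p = 0.00716) at 24 months. Without 1-month-old replicate 2, in which LAT was 6.14 times the mean of the other two, the changes were -6.73 and -4.99.

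LCP2, the cytosolic adaptor that joins LAT to phospholipase C and is shared by T cells, mast cells, platelets and myeloid cells, was at 67.3, 201 and 77.5 CPM at 1 month. It was at 4.38, 4.18 and 4.70 CPM at 12 months and at 4.31, 4.03 and 5.61 CPM at 24 months. Relative to 1 month it changed by -4.69 on the log2 scale (SE 0.552, edgeR adjusted p = 0.00752) at 12 months and -4.57 (SE 0.584, edgeR adjusted p = 0.00438) at 24 months, and -4.03 and -3.87 without 1-month-old replicate 2.

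**Figure D2:**
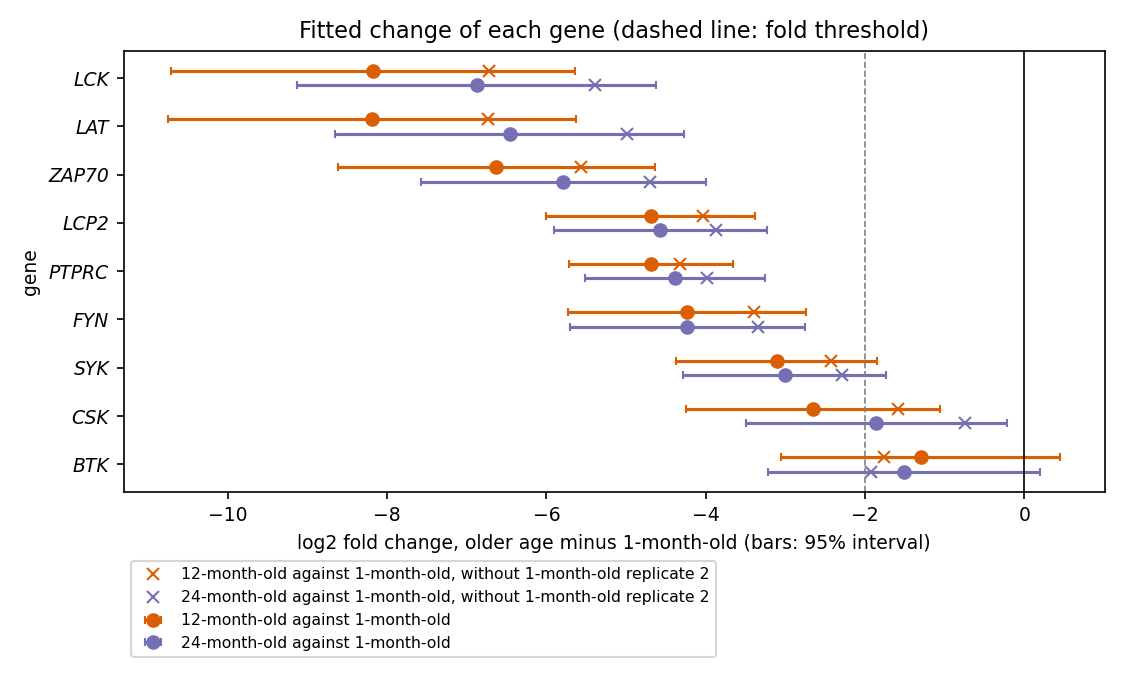
Log2 fold change of each gene at 12 and at 24 months against 1 month, with the 95% interval from edgeR as bars and crosses for the estimate without 1-month-old replicate 2. LCK, LAT and ZAP70 have the most negative values (-8.18, -8.19 and -6.63 at 12 months), and only the intervals of BTK include 0.

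The falls differed in size within the Src and the ZAP70/SYK pairs. The ratio of LCK to FYN, taken inside each library so that library size does not enter, was 1.76, 2.92 and 1.40 at 1 month, 0.161, 0.148 and 0.168 at 12 months and 0.332, 0.406 and 0.438 at 24 months. Since the genes differ in length, the change of this ratio can be read but not whether it lies above or below 1. It was 7.51-fold lower in the 6 older libraries than in the 3 young ones (mean log2 difference -2.91). The ratio of ZAP70 to SYK was 0.801, 0.964 and 0.520 at 1 month, 0.0678, 0.0488 and 0.104 at 12 months and 0.117, 0.0969 and 0.149 at 24 months, which was 7.72-fold lower in the older libraries (mean log2 difference -2.95). In both cases no older library reached the level of a young one. Without 1-month-old replicate 2 the log2 differences were -2.61 and -2.76. Both pairs were chosen to set a T cell gene against a relative known to remain in the older glands, so that these differences are a description and no test of them is given.

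**Figure D3:**
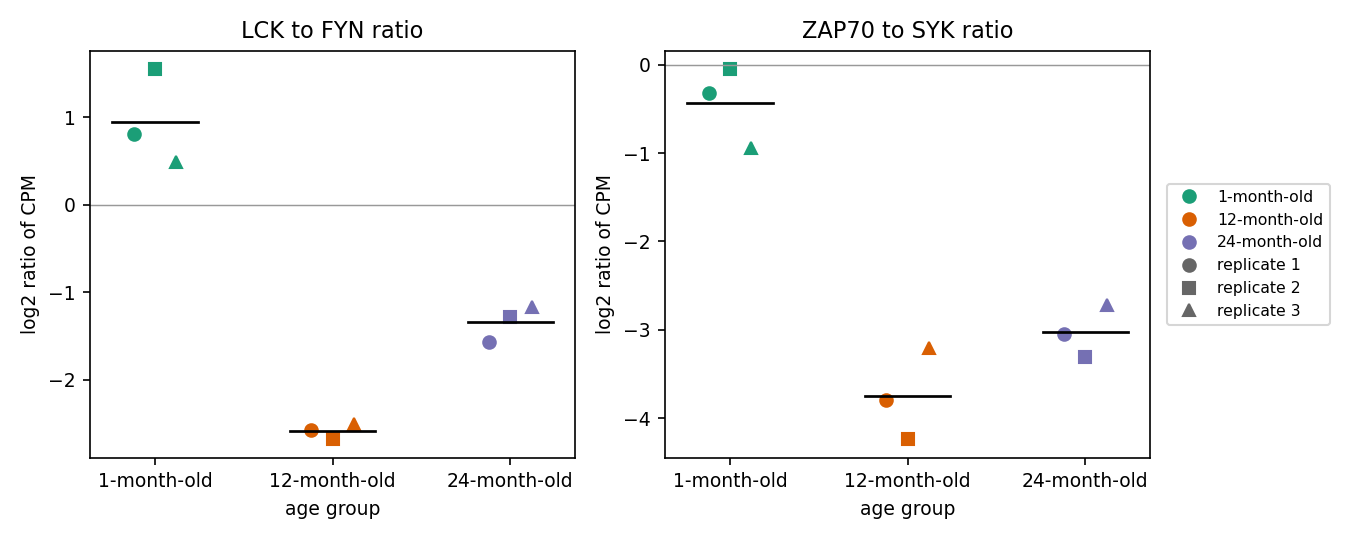
Log2 ratio of CPM for LCK to FYN and for ZAP70 to SYK in each library, with a black bar for the mean of 3 at each age. Both ratios are lower in all 6 older libraries, with mean log2 differences of -2.91 and -2.95, and the 24-month-old LCK to FYN ratios (0.332 to 0.438) all lie above the 12-month-old ones (0.148 to 0.168).

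The levels were also set against PTPRC as a gene of all leukocytes and against CD3E as a T cell receptor chain, a description without a test that was chosen after the levels had been seen. Divided by CD3E, the genes LCK, LAT and ZAP70 overlapped between young and older glands. LCK was at 0.987 to 1.37 times CD3E at 1 month and at 0.726 to 2.0 times CD3E later, LAT at 0.502 to 0.685 and 0.392 to 0.967, and ZAP70 at 0.299 to 0.605 and 0.571 to 1.5. The quotients of LCK and LAT to CD3E thus did not separate the ages. That of ZAP70 overlapped only through 24-month-old replicate 2 (0.571), and its other older libraries lay above all 1-month-old ones. CD3E itself was at 159, 1111 and 120 CPM at 1 month and at 0.771 to 3.97 CPM in the older libraries, so that the older quotients rest on low counts.

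Divided by PTPRC, LCP2 overlapped between the ages (0.255 to 0.386 at 1 month and 0.247 to 0.367 later), and so did FYN (0.321 to 0.719 and 0.556 to 0.802). The overlap of FYN came from 1-month-old replicate 2 alone (0.719). In 1-month-old replicates 1 and 3 (0.525 and 0.321) FYN lay below all older libraries. SYK was at 0.438 to 0.659 times PTPRC at 1 month and at 1.33 to 1.80 times PTPRC later, CSK at 0.372 to 0.888 and 1.98 to 5.57, and BTK at 0.00973 to 0.0984 and 0.190 to 0.469, with no overlap. LCK (0.449 to 2.1 and 0.117 to 0.297), ZAP70 (0.238 to 0.635 and 0.0879 to 0.233) and LAT (0.239 to 1.07 and 0.0460 to 0.193) lay lower relative to PTPRC in the older libraries, also without overlap. Relative to PTPRC, SYK, CSK and BTK were thus higher in the older glands, and LCK, ZAP70 and LAT lower. PTPRC itself changed by a log2 fold of -4.69 at 12 months and -4.38 at 24 months. The medians over all genes tested were -0.05 and -0.04, so that a gene of unchanged level also rises relative to PTPRC. The share of all genes without overlap relative to PTPRC was not counted.

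**Figure D4:**
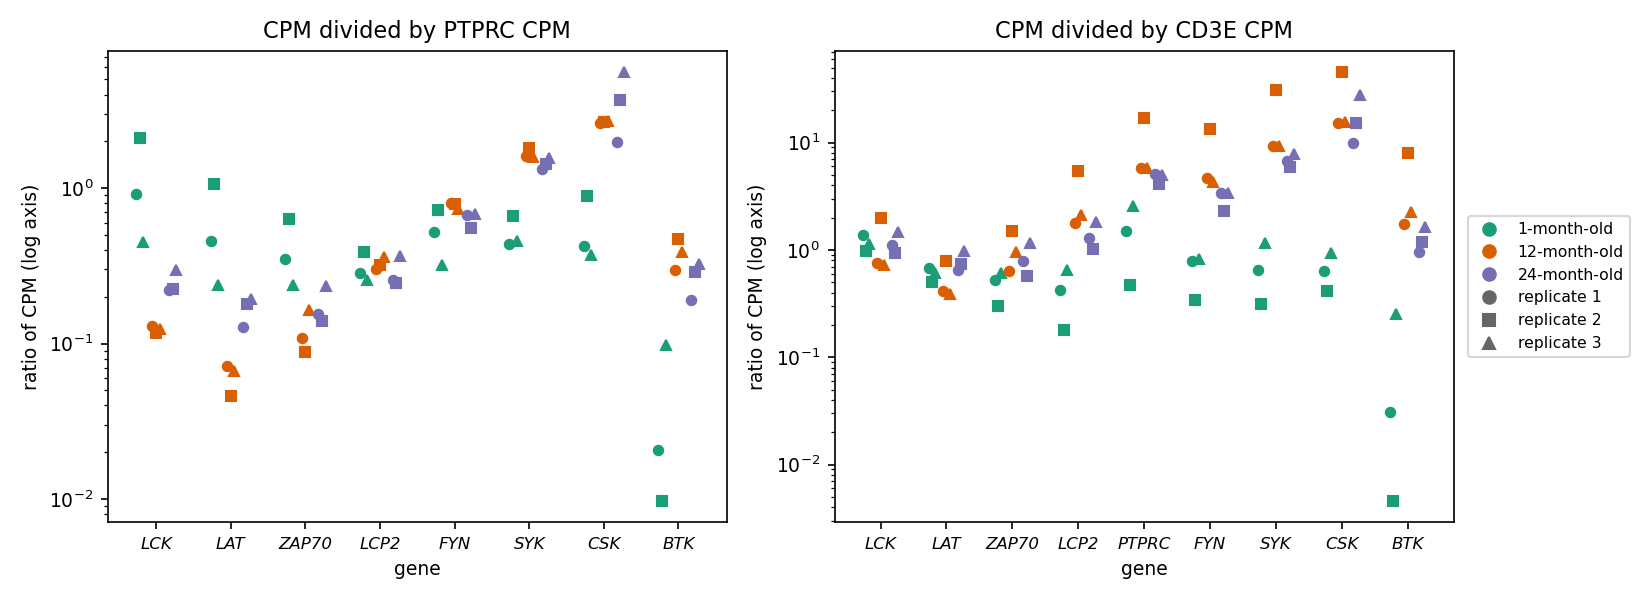
CPM of each gene divided by the CPM of PTPRC (left) or of CD3E (right) in the same library, on log axes, with colours for age and symbols for replicate. Against PTPRC, the young and older libraries overlap for LCP2 and FYN alone, for FYN only through 1-month-old replicate 2. Against CD3E they overlap for LCK, LAT and ZAP70 alone.

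The 9 genes had 30 transcripts in the table, 22 of them known RefSeq models and 8 assembled by the authors. Tested as single transcripts, 11 of 27 were called lower at 12 months and 7 of 24 at 24 months in edgeR, compared with 2.12% and 1.24% of all transcripts tested. These calls were less stable than those of genes. Without 1-month-old replicate 2, 13 of them were called at 12 months, beside 1397 of all 33642 transcripts tested. At 24 months 5 were called without that library, beside 218 of all 32955 transcripts tested. Without any other single library (1-month-old replicate 1 or 3, or replicate 1, 2 or 3 of the older age) 0 were called in edgeR, as was none of all the transcripts tested. LCK (XM_018057753.1), LCP2 (XM_013972703.2) and PTPRC (XM_005691063.3) had 1 transcript each. CSK was almost entirely XM_018066366.1, which held 98.3% of its count at 1 month, 99.1% at 12 months and 95.4% at 24 months. The division of reads among transcripts of a gene is an estimate, and for SYK it was unstable even at many reads, as given below. Where reads were few it was unstable too, since XM_018054881.1 held 100%, 0% and 94.3% of ZAP70 in the 24-month-old libraries. The same was seen for the other transcripts of ZAP70 in the 6 older libraries, where XM_018054882.1 held 0% to 100% and TCONS_00034109 held 0% to 53.0%. In LAT, XM_018040786.1 held 54.1% to 57.2% at 1 month and 24.8% to 77.0% later, TCONS_00072249 held 18.3% to 22.8% and 0% to 74.9%, and XM_018040784.1, XM_018040785.1 and XM_018040787.1 held at most 11.3% at 1 month and up to 20.4%, 34.5% and 37.5% in an older library. BTK was divided between XM_005700145.2, with 92.2% to 100% at 1 month, and TCONS_00081573, which held 39.7% of the 12-month count and none of the 24-month count.

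FYN and SYK had several transcripts each and more reads in the older glands than ZAP70, LAT and BTK. FYN is known to be spliced into a brain and a haematopoietic form, but the table does not say which transcript encodes which. Of the FYN count, XM_018053056.1 held 67.4%, 76.8% and 52.4% at 1 month and 3.47% to 44.8% in the older libraries, whereas XM_018053054.1 held 18.7%, 12.6% and 27.7% at 1 month and 39.3% to 66.5% later. The shares of both transcripts did not overlap between the ages, which held for 7.10% of all transcripts whose gene had 20 or more reads in every library. In CPM, XM_018053056.1 was at 84.0, 289 and 51.0 at 1 month and at 0.361 to 4.64 later, with a log2 fold change of -6.37 (edgeR adjusted p = 0.0452) at 12 months and -5.46 (edgeR adjusted p = 0.0447) at 24 months. The transcript XM_018053054.1 changed less, by -2.45 (edgeR adjusted p = 0.0406) and -2.61 (edgeR adjusted p = 0.0533, not called), from 23.2, 47.3 and 26.9 CPM to 4.07 to 6.59 CPM. The difference between these changes was not tested. Without 1-month-old replicate 2 they were -5.34 and -4.44 for XM_018053056.1 (edgeR adjusted p = 0.0296 and 0.0464) and -2.12 and -2.28 for XM_018053054.1 (edgeR adjusted p = 0.0159 and 0.0761). XM_018053055.1 held 1.2% to 6.61% of the FYN count at 1 month and 8.09% to 39.4% later, and TCONS_00028586 held 9.38% to 13.4% and 2.54% to 9.30%.

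For SYK, the assembled transcript TCONS_00027994 held 6.60%, 4.48% and 4.73% of the count at 1 month and 17.3% to 59.2% in the older libraries, without overlap. Its level was 6.86, 15.4 and 6.58 CPM at 1 month and 4.01 to 13.9 CPM later, and its log2 fold change was -0.79 at 12 months (edgeR adjusted p = 0.448) and 0.11 at 24 months (edgeR adjusted p = 0.946). The transcript TCONS_00027995, the largest at 1 month, was at 80.2, 201 and 88.6 CPM at 1 month and at 4.61 to 14.4 CPM later, with a log2 fold change of -3.54 (edgeR adjusted p = 0.0378) and -3.83 (edgeR adjusted p = 0.0433), or -3.04 (edgeR adjusted p = 0.0157) and -3.33 (edgeR adjusted p = 0.0529, not called) without 1-month-old replicate 2. XM_005684187.3 held 0%, 36.9% and 27.5% at 1 month and at most 9.74% later, and XM_013966200.2 held at most 6.85% and at most 23.0%. SYK had 2809, 9816 and 4999 reads in the 1-month-old libraries. The division among its transcripts was thus unstable at many reads too, and the SYK shares are uncertain.

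**Figure D5:**
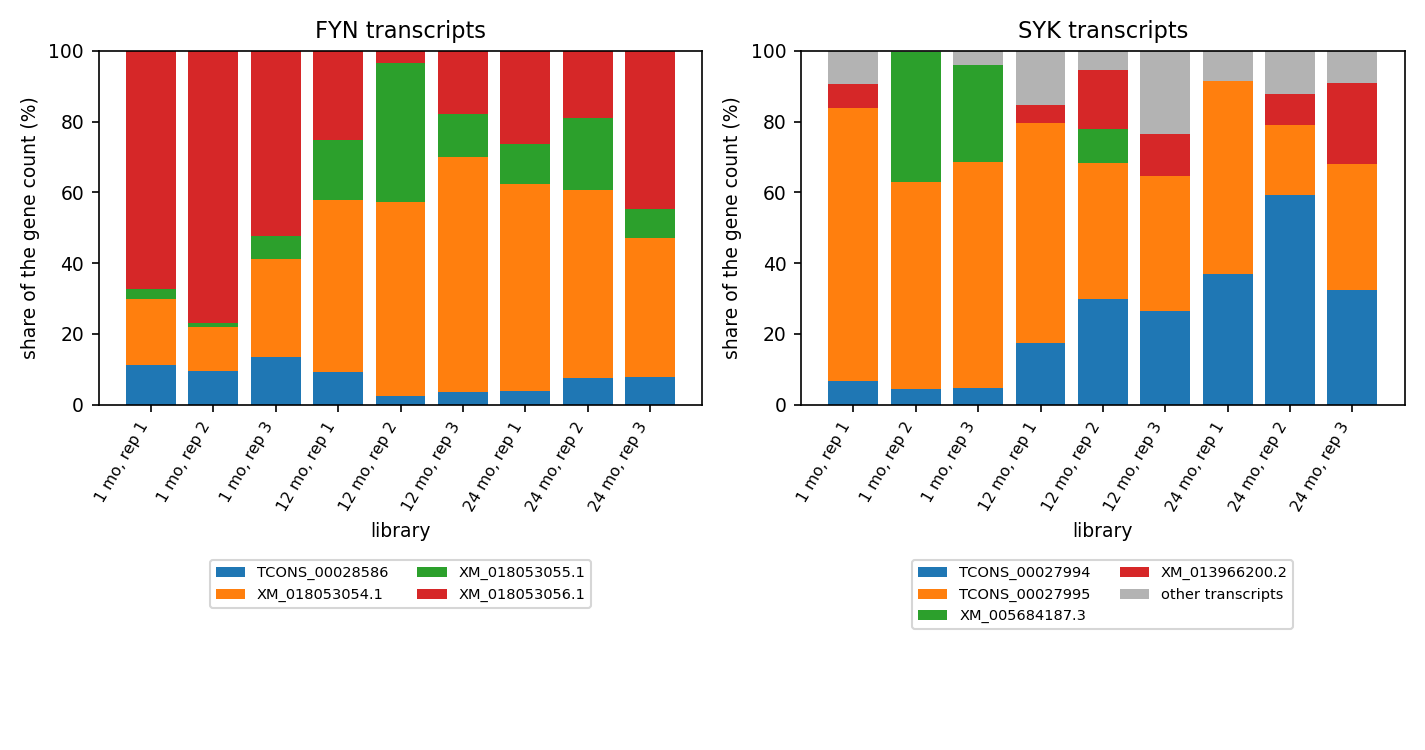
Share of the FYN and the SYK count held by each transcript in each library, in percent, with transcripts under the 10% share rule in every age group pooled in grey. The red FYN transcript (XM_018053056.1) holds 52.4% to 76.8% at 1 month and at most 44.8% later, and the blue SYK transcript (TCONS_00027994) holds at most 6.60% at 1 month and at least 17.3% later.

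Of 74 other genes of the receptor pathways, placed in 7 lists, 72 were found, and FYB1 and TRAT1 were not analysed here. At 12 months 40 of 72 tested were called lower in edgeR and none higher, and at 24 months 37 of 70 were called lower and none higher. Of all genes tested, 9.52% and 9.15% were called lower, and 1.92% and 3.90% higher. The median log2 fold change of the listed genes was -2.88 and -2.37. Without 1-month-old replicate 2 the counts were 38 and 36, beside 10.3% and 9.99% of all genes called lower. These counts of listed genes fell to 0, 1 and 6 without 12-month-old replicates 1, 2 and 3, and to 25, 15 and 8 without 24-month-old replicates 1, 2 and 3.

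The receptor signalling chains were lowered in most cases, with 7 of 8 called at 12 months and 5 of 8 at 24 months. CD3D, CD3E, CD3G and CD247, the chains that ZAP70 binds, had log2 fold changes of -7.17, -7.98, -6.21 and -6.93 at 12 months (edgeR adjusted p = 0.0121, 0.0124, 0.00604 and 0.0105). They were -5.63, -6.22, -6.25 and -5.54 without 1-month-old replicate 2, and all were still called. CD3G differed from CD3D, CD3E and CD247 in its spread, since it was at 158, 124 and 91.2 CPM at 1 month and was not highest in replicate 2. CD79A, a chain of the B cell receptor, changed by -3.44 at both ages (edgeR adjusted p = 0.0464 and 0.0467). This fall rested on 1-month-old replicate 2, since CD79A was at 32.1, 261 and 34.2 CPM at 1 month, and without that library it was -1.71 and -1.69, under the fold threshold at both ages. Its partner CD79B changed by -3.03 and -2.37 without being called, and by -3.37 (edgeR adjusted p = 0.0383, called) and -2.68 without replicate 2. FCER1G and TYROBP, which serve SYK in myeloid and natural killer cells, were called at 12 months (-3.26 and -2.20) but not at 24 months (-2.30 and -1.61), where FCER1G was called without 1-month-old replicate 2 (-2.49, edgeR adjusted p = 0.0254). Among the coreceptors, 5 of 6 were called lower at both ages.

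Within the Src family, 3 of the 6 other members were called lower at both ages, among them BLK of B cells (log2 fold change -5.70 and -4.98, with older libraries at 0 to 0.510 CPM and hence close to the 3-read floor, and -3.85 and -3.11 without 1-month-old replicate 2, the latter not called at an edgeR adjusted p of 0.057) and the myeloid kinase FGR (-2.99 and -2.25). FGR was highest in 1-month-old replicate 3, as BTK was, at 72.6 CPM compared with 14.3 and 24.9 CPM. SRC (-2.56 and -1.99), YES1 (1.44 and 0.89) and LYN (-0.18 and -0.10) were not called. In the Tec family, 2 genes were called lower at both ages, among them the T cell kinase TXK (-4.11 and -3.54), whereas TEC (1.16 and 0.46) was not called, nor was BMX at 12 months (-1.26). At 24 months BMX was tested only without 1-month-old replicate 2, where it was called (-2.78, edgeR adjusted p = 0.0401).

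Of 18 adaptors found, 10 were called lower at each age, with medians of -3.17 and -2.82. They included GRAP2, the partner of LCP2 (-7.04 at 12 months, and -5.89 without 1-month-old replicate 2), and THEMIS, a gene of T cell development (-8.28 and -7.69), while the common adaptors GRB2 (-0.19) and SHC1 (0.10) and the B cell adaptor BLNK (0.03) were not called. The phosphatases and ubiquitin ligases had 6 of 12 called lower at each age (medians -1.92 and -1.57). The downstream effectors had 7 of 18 called lower at 12 months and 6 of 17 at 24 months (medians -1.69 and -1.54), among them PRKCQ, the protein kinase C of T cells (-5.60 at 12 months, and -5.10 without 1-month-old replicate 2), but not PLCG2 (-0.98), the phospholipase C used by B cells.

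Between 12 and 24 months none of the 9 genes was called in edgeR, as was none of the 14290 genes tested (0% called), although 10.9% of all genes had an unadjusted p below 0.05, and DESeq2 called 13 of all genes. LAT (log2 fold change 1.72, 95% interval 0.63 to 2.80), LCK (1.29, 95% interval 0.42 to 2.17) and CSK (0.78, 95% interval 0.05 to 1.51) were the 3 of the 9 genes with an unadjusted p below 0.05, and the edgeR adjusted p was 0.431 for each. Without 24-month-old replicate 1, in which 167 of all genes were called, the edgeR adjusted p was 0.0265 for LAT, 0.0324 for LCK and 0.00994 for CSK, with changes below the fold threshold. LAT, LCK, ZAP70 and PTPRC lay higher in every 24-month-old library than in every 12-month-old library, which 7.66% of all genes did. FYN (95% interval -0.56 to 0.56), SYK (-0.39 to 0.58) and LCP2 (-0.62 to 0.86) had intervals that cover 0 and reach less than 2-fold in either direction. The LCK to FYN ratio was higher at 24 months by 1.25 on the log2 scale and without overlap, and the ZAP70 to SYK ratio was higher by 0.72 with overlapping libraries.

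For each gene, the 2 genes with the most similar levels were taken from 12864 named genes with a mean of at least 1 CPM, by Pearson's r of log2(CPM + 1) over the 9 libraries. All pairs share the same libraries, whose largest contrast is that of the ages, so that r is a description only. LCK was closest to RAB37 (r = 0.998) and SPN (0.997), LAT to SPN (0.998) and the T cell receptor gene TRAC (0.997), and ZAP70 to the coreceptor gene CD8B (0.998) and SASH3 (0.998). FYN was closest to the chemokine receptor CCR9 (0.998) and SH3KBP1 (0.998), LCP2 to LTB (0.998) and TRAF3IP3 (0.997), PTPRC to LAMP3 (0.997) and GMFG (0.997), and SYK to GGT5 (0.996) and LTB (0.996). GGT5 had 0 reads in all 6 older libraries, where CCR9 was at 0.0510 to 0.407 CPM and LTB at 0.174 to 0.510 CPM. These genes, and PTH and MS4A3 named below, passed the minimum level only through the 1-month-old libraries. RAB37 (0.275 to 1.33 CPM) and CD8B (0.110 to 2.65 CPM) were also low in the older libraries. CSK was closest to SOCS1 (0.995) and NFATC1 (0.995), which shared its spread at 24 months (SOCS1 at 2.15, 4.08 and 6.27 CPM in replicates 1, 2 and 3). BTK was closest to PTH (0.970) and MS4A3 (0.969), both of which were high in 1-month-old replicate 3 alone. PTH, the hormone of the parathyroid, was at 0.370, 0.140 and 650 CPM in the 1-month-old libraries and at no more than 1 read in any older library.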

How the data were processed

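Ribosomal RNA was removed from total RNA of 9 glands, and strand-marked libraries were sequenced on an Illumina HiSeq instrument. The authors aligned reads with TopHat2 (2.1.1) after Bowtie2 (2.2.8) removal of rRNA reads, assembled transcripts with Cufflinks and quantified them with RSEM. The genome build is not given in the sources used here, so no coordinates are printed. The deposited table holds RSEM expected counts of 52739 transcripts, multiplied by 1 constant per library: 1 read was worth 0.4386 to 1.169, and 79.7% to 83.6% of low values of single-transcript genes (below 40 reads) were whole within 0.03 read after division. Deposited totals of 11546808 to 24901065 thus became read totals of 20061904 to 26328051 in the 1-month-old, 20989068 to 25896086 in the 12-month-old and 20992251 to 22041298 in the 24-month-old libraries. This step was added after the values were seen.

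Transcripts were summed to genes through RefSeq names (42652 of 42686 known transcripts matched; ZAP70 carries a LOC symbol in that table), and 432 transcripts without a symbol were kept as features of their own. Counts were rounded and tested for each pair of ages with edgeR 4.0.16 (R 4.3.3; filterByExpr, trimmed mean of M values, quasi-likelihood F test, Benjamini-Hochberg over all genes), with calls at an adjusted p below 0.05 and an absolute log2 fold change above 2, which were the thresholds of the study; its FPKM filter was not used. The procedure was tested on simulated counts. SE is the size of the log2 fold change divided by the square root of F. Exact permutation tests (scipy 1.17.1) used log2(CPM + 0.1), and the smallest p is 0.0238 for 3 against 6 libraries. The ratios were planned with such a test but are given without one. Counting error falls with depth. The tests set each difference against the spread between libraries, in which goat, tissue sample and library cannot be told apart with 1 library per goat.

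Named are the 9 genes, their transcripts with at least 10% of the count in any age group, the 2 most correlated genes of each, the receptor chains and Src and Tec families, and examples of the other lists. Those examples (GRAP2, THEMIS, GRB2, SHC1, BLNK, PRKCQ and PLCG2) and the marker genes beside BTK were chosen after their values were seen. Members and lists were chosen with earlier results of these data known. Markers of natural killer cells summed to 19.2 to 30.4 CPM at 1 month and 1.60 to 14.6 CPM later, of thymic epithelium to 69.1 to 701 and 0.911 to 2.55 CPM, of plasma cells to 108 to 1164 and 1853 to 3741 CPM, and of endothelium to 343 to 639 and 292 to 559 CPM. LY75, CD163 and BPIFA2 were not analysed here, and some genes of the lists are not reported here by name. Alternatives were DESeq2 1.42.0, other size factors, no filter on low counts, 1 fit over all libraries, known transcripts only, a replicate block, each library left out and, added after seeing the data, the deposited values and limma 3.58.1.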

Additional observations from a re-analysis of the deposited data

How the results depend on the processing

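Of 270 combinations of gene and alternative against 1 month, 236 kept their direction and their side of the threshold, 33 lost a call and 1 changed direction (BTK at 12 months without 1-month-old replicate 3, 0.04, in a range from -1.76 over the libraries left out). Other size factors, DESeq2, no filter, 1 fit over all 9 libraries, known transcripts only and the deposited values left the number of the 9 genes called at 8 and 7, and limma gave 7 and 7. With each library left out in turn, the number called ranged from 0 to 8 at 12 months and from 3 to 7 at 24 months, and that of pathway genes from 0 to 40 and from 8 to 39. For the exact test, leaving out any 1-month-old library gave 0 genes below 0.05, because 2 against 6 libraries cannot go below 0.0714. Without scaling by the trimmed mean of M values, all 9 genes, BTK included, were lower at an exact p below 0.05, compared with 8 with it. The LCK to FYN ratio (log2 difference -3.14 to -2.61) and the ZAP70 to SYK ratio (-3.20 to -2.76), given without a test, kept their direction when a 1-month-old library was left out. Transcripts of the 9 genes called ranged from 0 to 13 at 12 months and from 0 to 5 at 24 months over the libraries left out, an alternative added after seeing the data. Between 12 and 24 months, 8 of 135 combinations changed direction, all of them small values: FYN with the deposited values (0.0048), with limma (0.05), without 12-month-old replicate 1 (0.03) and without 24-month-old replicate 2 (0.06; -0.10 to 0.06 over the libraries left out), SYK with known transcripts only (-0.43) and without 12-month-old replicate 3 (-0.0007; up to 0.14), BTK with known transcripts only (0.45), and LCP2 without 24-month-old replicate 3 (-0.08; up to 0.19). The cause was not tested.

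The replicate numbers did not pair the samples: deviations of same-numbered libraries correlated at -0.12, -0.12 and -0.11 between 1 and 12 months, at 0.43, 0.20 and -0.24 between 1 and 24 months and at -0.09, -0.13 and -0.01 between 12 and 24 months. With the replicate number as a block, 7 of the 9 genes were called at each age, pathway genes fell from 40 to 25 at 12 months (36 at 24 months), and all genes called went from 1742 to 795, from 1956 to 1731 and from 0 to 8 between 12 and 24 months.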
